A study of Mus musculus with 6 samples.

Results

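The family of miR-103 and miR-107 is a pair of nearly identical mature microRNAs, miR-103-3p and miR-107-3p, with the arms made from the other side of their hairpins. Its members were taken by name, as every array feature called miR-103 (with any copy number) or miR-107, on either arm. There were 4 such features among the 1247 mouse miRNAs of the arrays: mmu-miR-103-3p, mmu-miR-107-3p, mmu-miR-103-1-5p and mmu-miR-107-5p, written without the species prefix from here on. They were measured in total RNA of 3 groups with 2 single-colour (Cy3) Agilent miRNA arrays each. The first group was embryonic stem cells of the mouse (mESCs) from a C57 line. They grew in the presence of leukaemia inhibitory factor (LIF) on embryonic fibroblast feeders treated with mitomycin C and were kept for 16 h under normoxia. The second was embryoid bodies (EBs), the aggregates in which such cells begin to differentiate, made in hanging drops with neither LIF nor feeders and kept for 16 h under normoxia. The third was EBs kept for 16 h under hypoxia, for which no oxygen level is given in the sources used here. The labels name no genetic change in any group and, beside LIF and the mitomycin C of the feeders, no added agent. Nothing says that the arrays of a group came from separate cultures, so p-values reflect no more than the spread from array to array, which may be technical.

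A miRNA guides an Argonaute protein to messenger RNAs that pair with its seed, a short stretch near its 5′ end, and lowers their translation and stability. The hairpins of this family lie within genes of pantothenate kinases, the enzymes that open coenzyme A synthesis, and the family is best known from metabolism, where it dampens insulin signalling in mouse liver and fat through caveolin. In human cancer cells it targets Dicer, the enzyme that cuts miRNA precursors, human miR-107 is induced by p53 and targets ARNT, the partner of the hypoxia-inducible factors, and both miRNAs were reported among those raised by hypoxia.

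The mature sequences are shown because they bear on how far the features can be told apart. They come from RefSeq (GRCm38.p6), are written 5′ to 3′, and have the seed, bases 2 to 8, in capitals.
miR-103-3p: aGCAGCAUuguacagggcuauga
miR-107-3p: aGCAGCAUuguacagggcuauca
miR-103-1-5p: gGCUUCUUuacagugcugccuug
miR-103-2-5p: aGCUUCUUuacagugcugccuug
miR-107-5p: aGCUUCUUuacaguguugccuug
Both 3p members shared the seed GCAGCAU, which no other mature mouse miRNA among 1679 RefSeq names carried, and the messenger RNA site that pairs with it reads AUGCUGC. They were identical at 22 of 23 bases and differed by G22C, counted from the 5′ end of miR-103-3p, the last base but one. The 5p arms shared a seed of their own and differed by G1A between both miR-103 copies and by C16U between miR-103-2-5p and miR-107-5p. Cross-hybridisation between the members was not tested, so a signal of either 3p feature may hold a part from the other. In the authors' deposited table, the position given for miR-103-3p spans 17 bases, which on chromosomes 2 and 11 of GRCm38.p6 are bases 7 to 23 of the mature sequence, so the base that differs from miR-107-3p lies within it. For miR-107-3p the authors' deposited table gives a span of 19 bases that does not lie within the RefSeq mature sequence, so the same could not be read for it.

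The hairpins that encode the family are shown to place the arms that were measured, with both mature arms in capitals.
Mir103-1: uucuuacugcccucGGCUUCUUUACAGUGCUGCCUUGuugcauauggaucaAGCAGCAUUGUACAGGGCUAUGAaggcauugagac
Mir103-2: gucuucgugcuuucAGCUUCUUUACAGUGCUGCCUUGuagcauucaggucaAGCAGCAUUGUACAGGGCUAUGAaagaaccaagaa
Mir107: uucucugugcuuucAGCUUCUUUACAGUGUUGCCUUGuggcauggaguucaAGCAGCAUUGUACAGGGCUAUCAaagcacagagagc
Mir103-1 lies at chr11:35782396-35782481 on the plus strand, within the span of Pank3. Mir103-2 lies at chr2:131288052-131288137 on the plus strand, within the span of Pank2. Mir107 lies at chr19:34820687-34820773 on the minus strand, within the span of Pank1. All 3 are on the strand of their host gene, and in RefSeq terms the family is thus spread over 3 genes on 3 chromosomes. Mir103-2 and Mir107 were identical at 73 of 87 aligned positions, Mir103-1 and Mir107 at 70 of 87, and Mir103-1 and Mir103-2 at 69 of 86. Both miR-103 hairpins give the same 3p arm, so the miR-103-3p signal does not say which of them made it. No messenger RNA was measured, and the levels of the host genes were not analysed here.

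Over the whole set, the arrays called 408 to 495 mouse miRNAs detected, and their brightness differed. Taken over the 391 miRNAs that all 6 arrays detected, the 75th percentile came to 137 and 140.0 units for mESCs. It came to 222 and 237 units for normoxic EBs and to 219 and 175 units for hypoxic EBs. Each array was therefore scaled to this percentile, and the 484 miRNAs that some group showed as detected on both of its arrays were fitted together in limma. File names put all arrays on a single slide, the mESC arrays in another row than the EB arrays, so slide position and group cannot be told apart. All 7 pluripotent-cell markers of the list were detected on all 6 arrays. Their summed scaled signal was 26040.0 to 27271 units in mESCs, 20492 to 22802 units in normoxic EBs and 17512 to 17571 units in hypoxic EBs. This order rested on the scaling. Unscaled, the sums were 19368 to 19855 units in mESCs, 25783 to 26922 units in normoxic EBs and 16291 to 20351 units in hypoxic EBs. Of 6 fibroblast markers, chosen because of the feeders, none was detected on the mESC arrays, 1 on each normoxic EB array, and 3 and 1 on the hypoxic EB arrays, with summed scaled signals of 0 in mESCs and 4.53 to 16.4 units in EBs. miR-199a-5p, miR-199b-5p and miR-143-3p among them were detected on no array, and the part of such cells in the values below was not tested. Of 6 muscle markers 5 were detected on no array.

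The family was present in every group through its 3p arms. Both 3p members were detected on all 6 arrays, whereas miR-103-1-5p and miR-107-5p were detected on none and stand at the 0.1 units deposited for undetected features. The feature named miR-103-1-5p is annotated in the authors' deposited table for both miR-103-1-5p and miR-103-2-5p, with a position in each arm. Thus 2 of the 4 members passed the filter on low values. The 2 undetected arms have no measured level, and no change can be given for them.

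Before scaling, miR-103-3p read 105 and 101 units in mESCs, 159 and 153 units in EBs under normoxia, and 135 and 108 units in EBs under hypoxia. In these units the normoxic EB arrays were the brightest and did not overlap with either other group, and the hypoxic EB arrays lay between them and the mESC arrays. After scaling it read 144 and 136 units in mESCs, 135 and 121 units in EBs under normoxia, and 116 and 116 units in EBs under hypoxia. The order then ran from mESCs down to hypoxic EBs with no overlap between groups. Yet the lower mESC array and the higher normoxic EB array were separated by less than the scanner error of either. The same held for the lower normoxic EB array and the higher hypoxic EB array. Group means were 140.3 ± 5.46 (SD, n = 2), 128 ± 9.58 and 116 ± 0.0913 in that order.

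Before scaling, miR-107-3p read 69.4 and 70.7 units in mESCs, 116 and 114 units in EBs under normoxia, and 94.3 and 74.1 units in EBs under hypoxia. It showed the same order of groups as miR-103-3p, again without overlap. After scaling it read 95.32 and 95.02 units in mESCs, 98.6 and 90.8 units in EBs under normoxia, and 81.2 and 79.9 units in EBs under hypoxia. The mESC arrays now fell between both normoxic EB arrays, and the hypoxic EB arrays lay below all others. Group means were 95.2 ± 0.208 (SD, n = 2), 94.7 ± 5.55 and 80.5 ± 0.857. The scanner gave each reading an error of 7.26% to 7.90% of the signal, and the arrays of a group differed by at most 0.15 in log2 after scaling, for miR-103-3p in normoxic EBs.

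**Figure D1:**
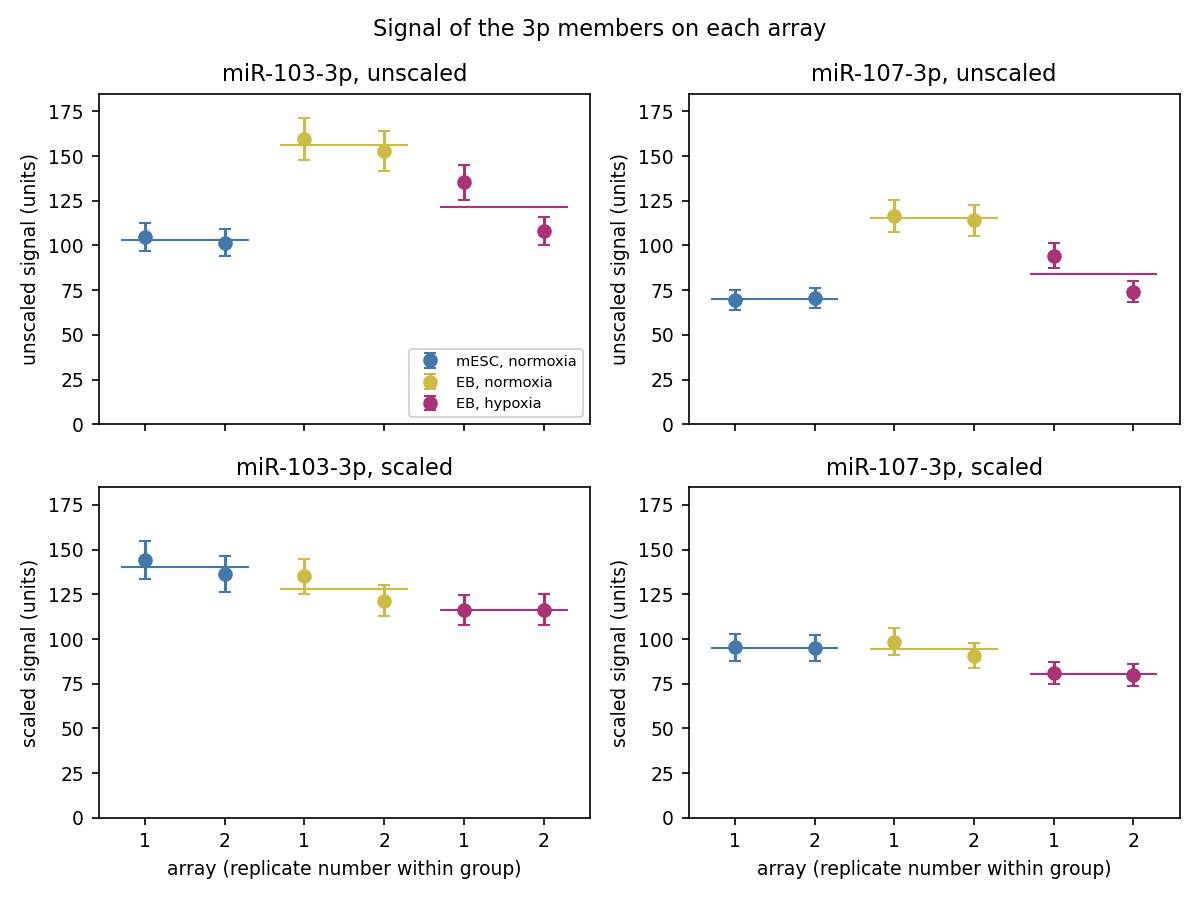
Signal of miR-103-3p (left) and miR-107-3p (right) on each of the 6 arrays, unscaled (top) and scaled (bottom), in scanner units on axes that start at 0. Points are arrays, bars the scanner's error, and horizontal lines group means. Unscaled, the normoxic EB arrays stand highest; scaled, the groups lie close together and the hypoxic EB arrays are lowest.

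The comparison of normoxic EBs with mESCs asked whether the family differed between the aggregates and the stem cells. The groups also differ in LIF, feeders and slide row, which cannot be told apart from aggregation here. Neither 3p member passed the threshold of 0.05 on the adjusted p, where 51.2% of the tested miRNAs passed in one direction or the other. Nor did either pass on the unadjusted p, for which the share of all tested miRNAs is not given here. miR-103-3p in normoxic EBs stood at 0.913 of its mESC level (95% interval 0.801 to 1.04, log2 change -0.13, SE 0.07, adjusted p = 0.185). miR-107-3p stood at 0.994 (0.894 to 1.11, log2 change -0.01, SE 0.06, adjusted p = 0.934). The arrays of both groups were apart for miR-103-3p and overlapped for miR-107-3p, against 79.3% of tested miRNAs with no overlap. Changes of larger size were seen for 383 of the 484 tested miRNAs beside miR-103-3p and for 460 beside miR-107-3p. The intervals bound the change under this scaling at a fall of 1.25-fold for miR-103-3p. The RNA came from whole cultures, in which fewer cells of a type and less RNA per cell cannot be told apart. Of the 7 pluripotent-cell markers, 4 fell in this comparison and none rose, where 25.2% of tested miRNAs fell. Their median log2 change of -0.52, that of miR-290-3p, turned to 0.20 without scaling (3 rose and 3 fell). The fallers miR-302b-3p, miR-302d-3p and miR-367-3p stood at -1.57, -1.83 and -1.68. miR-291a-3p, miR-294-3p and miR-295-3p stood at -0.08, -0.23 and -0.10 and did not pass on the adjusted p. The part of these markers in the values of the family was not tested.

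The result of that comparison rested on the scaling. With no scaling, and with the authors' deposited normalized ratio, which is not scaled between arrays either, both members were higher in normoxic EBs, by 0.60 in log2 for miR-103-3p (adjusted p = 0.0111 and 0.0102) and by 0.72 for miR-107-3p (adjusted p = 0.00644 and 0.00541). The median of all tested miRNAs moved along with them, from 0.05 with the scaling used here to 0.74 without any. Set against that median, the change of miR-103-3p ran from -0.18 to -0.01 over the 8 scalings, and that of miR-107-3p from -0.05 to 0.16. A factor that multiplies a whole array moves members and median nearly alike, so agreement among such scalings is no separate support. Quantile normalization and cyclic loess, which are not such factors, gave -0.01 and -0.08 for miR-103-3p and 0.16 and 0.08 for miR-107-3p.

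The comparison of hypoxic with normoxic EBs asked whether the family moved with oxygen. Of both 3p members 1 passed, downward, where 25.2% of the tested miRNAs passed downward and 58.1% in either direction. miR-107-3p fell 1.17-fold under hypoxia (95% interval 1.06 to 1.31, log2 change -0.23, SE 0.06, adjusted p = 0.0283). miR-103-3p had a log2 change of -0.14 (SE 0.07, adjusted p = 0.152), at 0.909 of its normoxic level (0.798 to 1.04). For both, the 2 hypoxic arrays lay below the 2 normoxic arrays, as the groups were apart for 84.7% of tested miRNAs. The standard error that the scanner's own errors give for these changes, 0.11 in log2 for each member, was larger than that of the fit. Of the 7 pluripotent-cell markers 6 fell as well and none rose, with a median of -0.34, but 0 fell with hur scaling (0 at an unadjusted p under 0.05 too). Fewer passed without hypoxic EB array 1 or 2, where the median was -0.31 and -0.33. Their part in the fall of miR-107-3p was not tested.

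The call for miR-107-3p was not stable. It was lost on leaving out mESC array 2, which is not part of this comparison, or either hypoxic EB array, while miR-103-3p passed without normoxic EB array 2. The changes were then -0.29 to -0.18 for miR-107-3p and -0.21 to -0.064 for miR-103-3p over all arrays left out. Such a fit has fewer arrays for the spread and 1 array in a group. Whether a call is lost through the array or through the smaller fit cannot be told apart, here and below. With scaling to the hur features, control spots that were brighter on normoxic than on hypoxic EB arrays, the log2 changes were 0.10 for miR-103-3p and 0.00 for miR-107-3p, and the median of all tested miRNAs was 0.34 in place of 0.10. Relative to that median miR-103-3p lay at -0.29 to -0.21 and miR-107-3p at -0.37 to -0.33 over the 8 scalings. The ends of both ranges came from quantile normalization and cyclic loess. The other scalings shift members and median nearly alike, so their agreement is no separate support. With the scaling used here, 27.3% of tested miRNAs had a lower change than miR-107-3p and 36.98% a lower change than miR-103-3p.

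Between hypoxic EBs and mESCs, which shares arrays with the comparisons above, both 3p members passed downward, where 33.7% of tested miRNAs did so and 75% passed in either direction. miR-103-3p was 1.204-fold lower in hypoxic EBs (95% interval 1.06 to 1.37, log2 change -0.27, SE 0.07, adjusted p = 0.0238). miR-107-3p was 1.18-fold lower (1.06 to 1.31, log2 change -0.24, SE 0.06, adjusted p = 0.0176). The arrays were apart for both, as they were for 88% of tested miRNAs. All 7 pluripotent-cell markers were lower too, with a median of -0.74, and 3 of the 7 without scaling. Their part in these changes was not tested.

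These calls were not stable either and depended on the scaling. That of miR-103-3p was lost without mESC array 1, hypoxic EB array 1 or hypoxic EB array 2. That of miR-107-3p was lost without mESC array 1, mESC array 2, hypoxic EB array 1 or hypoxic EB array 2. The changes moved little when 1 array was left out, from -0.31 to -0.22 for miR-103-3p and from -0.25 to -0.22 for miR-107-3p. Without scaling both members were higher in hypoxic EBs, by 0.23 and 0.26 in log2 (adjusted p = 0.2 and 0.171), while the median of all tested miRNAs stood at 0.57. Relative to the median, the changes over the 8 scalings were -0.38 to -0.18 for miR-103-3p and -0.35 to -0.14 for miR-107-3p. Quantile normalization and cyclic loess, which are no whole-array factors, gave -0.29 and -0.18 for miR-103-3p and -0.21 and -0.14 for miR-107-3p.

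**Figure D2:**
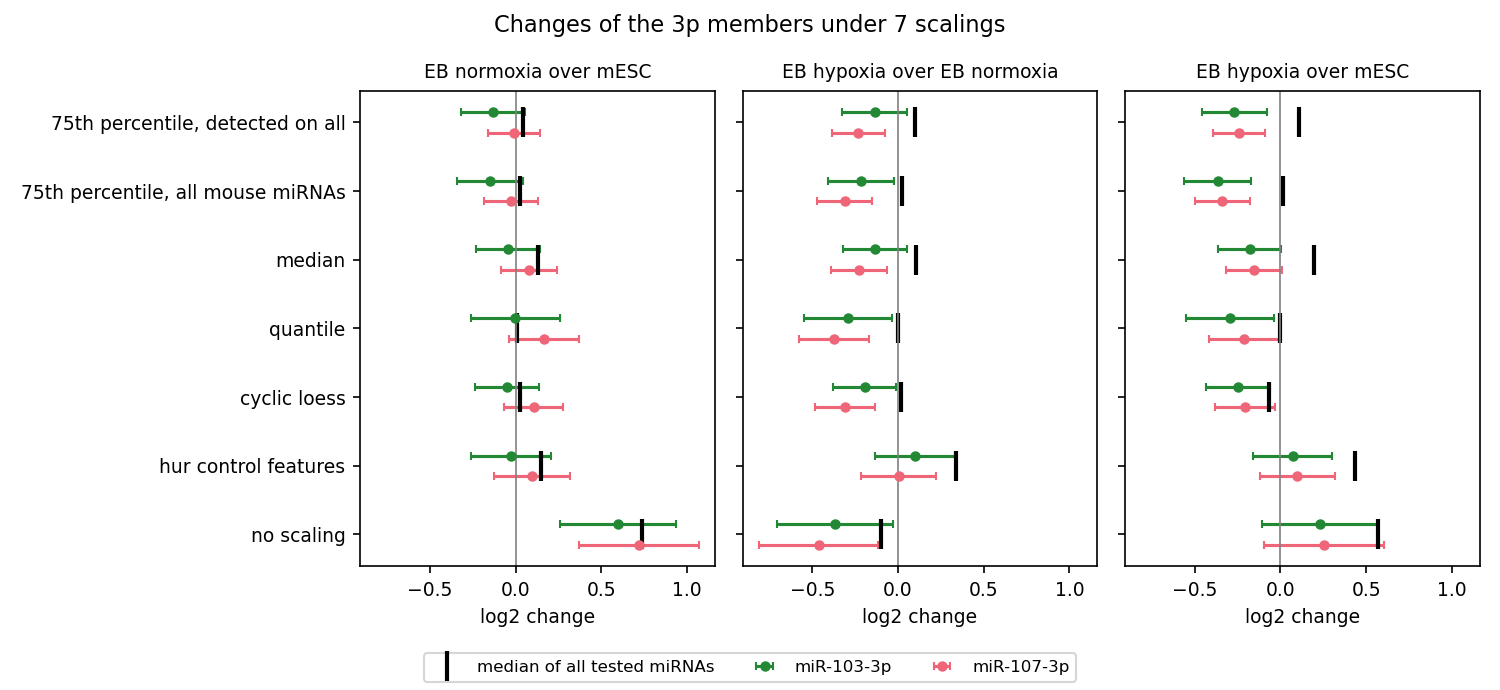
Log2 change of miR-103-3p (green) and miR-107-3p (red) in the 3 comparisons under 7 scalings, with 95% intervals from limma; black ticks mark the median of all tested miRNAs under the same scaling. Without scaling both members and the median shift upward over mESCs, and under every scaling shown the members lie below the median when hypoxic and normoxic EBs are compared. Scalings by a single factor per array move members and median nearly alike.

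Both 3p members were then set against each other within each array, a difference that no single scale factor can alter. Features differ in how brightly they bind, so only its change between groups is read. The log2 signal of miR-103-3p minus that of miR-107-3p was 0.60 and 0.52 in mESCs, 0.45 and 0.42 in EBs under normoxia, and 0.52 and 0.54 in EBs under hypoxia. Both normoxic EB arrays thus lay below the other 4. From mESCs to normoxic EBs the difference went down by 0.12 (pooled SD 0.04, n = 2, exact permutation p = 0.33), and from normoxic to hypoxic EBs it changed by 0.10 (pooled SD 0.02, exact permutation p = 0.33). Both steps use the same normoxic arrays, and 0.33 is the smallest two-sided p that 2 against 2 arrays allow. From mESCs to hypoxic EBs the change was -0.03 with overlapping groups (exact permutation p = 0.667). The scanner's errors alone give each within-array difference an error of 0.15 to 0.16, while arrays of a group lay closer together than that. With 2 arrays a group the test could not pass, so these values show neither that the members responded alike nor that they differed.

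The seed region of the family is also that of the miR-15/16 group shifted by a base: bases 1 to 7 of both 3p members, AGCAGCA, are bases 2 to 8 of miR-15 and miR-16, which curb the cell cycle. The sequences show the shift, with bases 2 to 8 in capitals.
miR-15a-5p: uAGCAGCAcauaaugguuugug
miR-15b-5p: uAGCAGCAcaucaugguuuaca
miR-16-5p: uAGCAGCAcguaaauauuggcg
miR-195a-5p: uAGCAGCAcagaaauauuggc
miR-322-5p: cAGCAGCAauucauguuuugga
miR-497-5p: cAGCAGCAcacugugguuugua
The site that pairs with these bases, UGCUGCU, overlaps that of the family without being the same. RefSeq held 10 mature mouse miRNAs with AGCAGCA at bases 2 to 8, all of them on the array and 6 tested, which are those shown. RefSeq calls miR-497-5p by the later name miR-497a-5p, and the position in the authors' deposited table lies within that mature sequence.

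Of these 6, 1 rose and 1 fell in normoxic EBs against mESCs in limma, where 51.2% of all tested miRNAs passed and 25.2% did so downward. Their median log2 change was 0.02 beside 0.05 over all tested miRNAs. The riser was miR-497-5p, at 0.31 (adjusted p = 0.0193), whose call was lost without mESC array 2. The faller was miR-322-5p, at -0.69 (adjusted p = 0.0104), whose call was lost without mESC array 1 or 2. miR-15a-5p had 0.18 (adjusted p = 0.054). It passed upward in 9 of the 21 alternatives, among them median scaling (adjusted p = 0.0205) and hur scaling (adjusted p = 0.0385). Leaving out 1 array gave 0.25 to 0.37 for miR-497-5p, -0.85 to -0.53 for miR-322-5p and 0.13 to 0.23 for miR-15a-5p. Without scaling or with the authors' deposited ratio 5 of the 6 rose and 0 fell, with a median of 0.75. The median turned to -0.03 without normoxic EB array 1.

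Under hypoxia against normoxia 4 of these 6 fell and none rose in limma (5 and 0 before adjustment), where 25.2% of all tested miRNAs fell, with a median of -0.30 beside 0.10. miR-15a-5p fell by 0.42 in log2 (adjusted p = 0.00908), miR-16-5p by 0.39 (adjusted p = 0.011) and miR-15b-5p by 0.30 (adjusted p = 0.0353). Falls of like size were seen outside this seed too, as for miR-17-5p at -0.36 and miR-25-3p at -0.34. Over all tested miRNAs 122 fell and 159 rose. The call of miR-15b-5p was lost without mESC array 1, mESC array 2, normoxic EB array 1, hypoxic EB array 1 or hypoxic EB array 2. Its change ran from -0.40 to -0.21 when 1 array was left out. The median of the 6 was -0.22 without normoxic EB array 1 and -0.28 without hypoxic EB array 1, with fewer calls in both. With hur scaling none of the 6 passed in the limma fit, nor at an unadjusted p under 0.05, and their median was -0.06 beside 0.34 over all tested miRNAs.

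Against mESCs 4 of the 6 were lower in hypoxic EBs and none higher, at adjusted as at unadjusted p, where 33.7% of all tested miRNAs were lower. They include miR-322-5p at -0.87 (adjusted p = 0.0031), miR-16-5p at -0.44 (adjusted p = 0.00311) and miR-15b-5p at -0.41 (adjusted p = 0.0102). The call of miR-15b-5p was lost without hypoxic EB array 2, and its change was -0.44 to -0.36 on leaving out 1 array. The list's median of -0.32 turned to 0.17 without scaling or with the authors' deposited ratio, where 1 was higher and 0 lower. It turned to 0.01 with hur scaling, where 1 was higher and 1 lower. Leaving out hypoxic EB array 2 lets a further miRNA of the seed be tested. The median was then -0.21, and the calls downward were fewer and no longer the only ones.

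A second list holds miRNAs reported, like miR-103 and miR-107, to rise under hypoxia in human cancer cells: miR-210 and the miR-23, miR-24, miR-26, miR-27 and miR-181 families. Of its 11 members, all on the array, 9 were tested, miR-181a-5p was detected on no array and miR-181b-5p on 1. Between hypoxic and normoxic EBs 1 rose and 6 fell, where 25.2% of all tested miRNAs fell and 58.1% passed in either direction, with a median log2 change of -0.27 beside 0.10 over all tested miRNAs. The riser was miR-210-3p, the standard marker of the hypoxia-inducible factors, with a log2 change of 1.21 (adjusted p = 0.00601). Its mean scaled signal was 148 units in mESCs, 76.5 in normoxic EBs and 176 in hypoxic EBs. Against mESCs its log2 change was thus -0.95 in normoxic EBs and 0.25 in hypoxic EBs, so the rise started from a level below that of normoxic mESCs. The largest falls were those of miR-181c-5p at -0.34 (adjusted p = 0.00768), miR-26b-5p at -0.31 (adjusted p = 0.0234) and miR-26a-5p at -0.31 (adjusted p = 0.0214). The call of miR-26b-5p was lost without mESC array 1, mESC array 2, normoxic EB array 1 or hypoxic EB array 2, and that of miR-26a-5p without hypoxic EB array 1 or 2. Their changes ran from -0.38 to -0.24 and from -0.39 to -0.24 when 1 array was left out. The median of the list was -0.27 without hypoxic EB array 1 and -0.23 without hypoxic EB array 2, with fewer calls in both. The change of miR-107-3p, at -0.23, and that of miR-103-3p, at -0.14, were smaller than the falls of miR-181c-5p, miR-26b-5p and miR-26a-5p, which were picked as the largest. Both lay within the range of the list. miR-24-3p at -0.004 changed less than both, and miR-27a-3p at -0.16 and miR-23a-3p at -0.19 lay between them. miR-23b-3p at -0.27 and miR-27b-3p at -0.30 fell more than both. With hur scaling the list had 1 riser and 0 fallers in the limma fit, or 2 and 0 before adjustment of the p-values, and its median was -0.04. Against mESCs 1 list member rose and 6 fell in normoxic EBs, where 25.2% of tested miRNAs fell, with a median of -0.39 that turned to 0.34 without scaling or with the authors' deposited ratio, where 4 rose and 0 fell. In hypoxic EBs 1 was higher and 7 were lower than in mESCs, where 33.7% of tested miRNAs were lower, with a median of -0.39 that turned to 0.11 under the same settings, where 2 were higher and 1 lower.

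**Figure D3:**
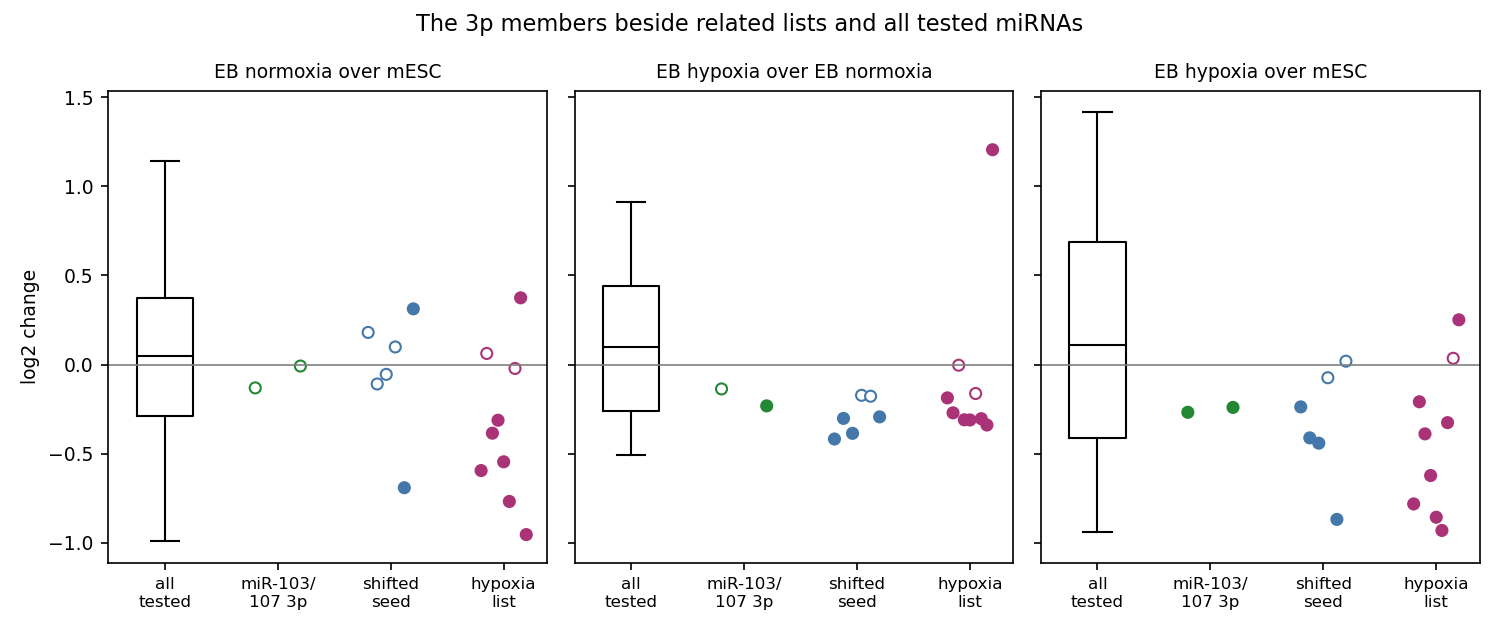
Log2 changes in the 3 comparisons for all 484 tested miRNAs (box: quartiles and median; whiskers: 5th to 95th percentile), miR-103-3p and miR-107-3p (green), the 6 miRNAs with the shifted seed (blue) and the 9 tested members of the hypoxia list (purple). Filled points passed an adjusted p of 0.05 in limma. Between hypoxic and normoxic EBs both members lie among the small negative changes of both lists, and the single high point is miR-210-3p.

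The miRNAs whose course over the 6 arrays was most like that of each member were found by the root mean square difference of log2 profiles, each centred on its own mean, over 389 other miRNAs detected on all arrays. Nearest to miR-103-3p were miR-350-3p at 0.02, miR-141-3p at 0.05 and miR-361-5p at 0.05, where the median of all was 0.29. Nearest to miR-107-3p were miR-324-5p at 0.02, miR-23b-3p at 0.03 and miR-93-5p at 0.03, where the median of all was 0.31. The members themselves were 0.06 apart, and 4 other miRNAs were closer to miR-103-3p and 16 closer to miR-107-3p than the members were to each other. The arrays share a slide and 2 of them make up each group, so these distances describe 6 arrays and carry no test.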

How the data were processed

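Per the file headers, the deposited scanner files give 1268 features, 21 of them controls, each with an intensity (the total signal of a miRNA), an error of that intensity and a flag for detection. The labels' protocols give Trizol extraction and Cy3 labelling with a cRNA kit of a kind usual for messenger RNA. Which labelling these miRNA arrays had is thus not settled. The scanner software and the rule of the flag are not stated in the labels. The whole-series table deposited by the authors repeats these intensities (7518 of 7518 values within a relative tolerance of 1e-04) and adds a normalized ratio, the signal over a control value per miRNA for 7514 of the 7518 values at that tolerance. Its 6 columns for 2 arrays that match no listed sample were not used.

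Here each array was scaled to its 75th percentile over miRNAs detected on all arrays, brought back to the mean percentile, floored at 2.91 units and put on the log2 scale. A model of group means over the 6 arrays was fitted in limma 3.58.1 under R 4.3.3 (lmFit, eBayes, residual df 3, prior df 1.43) with Benjamini-Hochberg adjustment over the 484 tested miRNAs in each comparison, at a threshold of 0.05. The fit was run on simulated data as a check of the code. How well it recovers changes as small as those of the members is not given here. The number of arrays limits the precision. Named by rule are all members, the 3 shifted-seed miRNAs and the 4 hypoxia-list miRNAs of largest change, and the 3 most alike per member. Further members of the hypoxia, shifted-seed and marker lists are named beside them. miR-17-5p and miR-25-3p were picked by no rule, as examples of falls outside the shifted seed. The members and lists were chosen with earlier results of these data known. Titles number the arrays 1 and 2 in each group; deviations of same-numbered arrays correlated at -0.02 to 0.06, so the numbers were not taken to pair them. RefSeq tables supplied sequences, positions and host spans; all 3 hairpins and 5 mature names of the family matched. Sequences were aligned with Biopython 1.88 and figures drawn with matplotlib 3.10.9.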

Additional observations from a re-analysis of the deposited data

How the results depend on the processing

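Each change of a 3p member was recomputed under 21 alternatives. Values are log2 changes. In normoxic EBs against mESCs, miR-107-3p turned to 0.077 with median scaling, 0.16 with quantile normalization, 0.10 with cyclic loess, 0.10 with hur scaling and 0.0033 when only the compared groups were used; without scaling and with the authors' ratio miR-103-3p turned to 0.60 and miR-107-3p to 0.72. Between hypoxic and normoxic EBs, hur scaling gave 0.10 and 0.0034, and miR-107-3p missed the threshold at -0.46 without scaling and with the authors' ratio, and at -0.23 with no filter. Between hypoxic EBs and mESCs, miR-103-3p and miR-107-3p turned to 0.23 and 0.26 without scaling and with the authors' ratio, and to 0.071 and 0.10 with hur scaling. They missed the threshold at -0.18 and -0.15 with median scaling, -0.29 and -0.21 with quantile normalization, and -0.27 and -0.24 with no filter. Without a filter more miRNAs were tested, most of them at the floor; elsewhere the cause was not tested.

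Leaving out 1 array gave -0.20 to -0.055 for miR-103-3p and -0.064 to 0.051 for miR-107-3p in normoxic EBs against mESCs, where miR-107-3p turned to 0.016 without mESC array 1, 0.051 without normoxic EB array 2 and 0.0033 without hypoxic EB array 2. It gave -0.21 to -0.064 and -0.29 to -0.18 under hypoxia against normoxia, and -0.31 to -0.22 and -0.25 to -0.22 against mESCs. The within-array difference of the members moved to -0.17 (normoxic EBs against mESCs) and -0.083 (hypoxic EBs against mESCs) with quantile normalization. The replicate block left every value as it was (-0.13, -0.01, -0.14, -0.23, -0.27 and -0.24) and changed no call, with adjusted p = 0.0362 for miR-107-3p between hypoxic and normoxic EBs. The 75th percentile over all mouse miRNAs, the other floors, detection on all arrays, the intensity trend and weights from the scanner's error changed no call or direction of either member. Without scaling and with the authors' ratio, miR-322-5p turned to 0.037 in normoxic EBs against mESCs, and miR-16-5p turned to 0.055 and miR-15b-5p to 0.085 in hypoxic EBs against mESCs. Of all tested miRNAs, 248, 281 and 363 passed in the 3 comparisons in the order given. These counts were 94, 20 and 231 with no filter. Of the other counts, the first was 154 with a floor 4 times as high, and the second 139 without scaling and 142 with the authors' ratio. Leaving out an array lowered counts too, as for the first without mESC array 1 and the second without normoxic EB array 1. Of those that passed, 50.8%, 56.6% and 55.1% were higher, against 96.7%, 17.3% and 93.0% without scaling and 64.8%, 93.9% and 80.7% with hur scaling.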
